A study of Mus musculus with 2 samples.

Results

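T cell receptor gene segments were described in TEa cells, mouse CD4 T cells that carry a transgenic receptor, across 2 RNA libraries. The members were the 226 rows, of 35275 in the deposited count table, whose symbols begin with Trav, Traj, Trac, Trbv, Trbd, Trbj, Trbc, Trdv, Trgv or Tcrg. Trdc is not analysed here. The TEa receptor recognises a peptide of the class II molecule I-E alpha of BALB/c mice. The exhausted library came from TEa cells given to CB6F1 mice, the F1 cross of those strains, in which the antigen is abundant. The effector library came from TEa cells transferred into WT C57BL/6 recipients that were given a BALB/c skin transplant. Both libraries were made from sorted TEa cells of C57BL/6 strain and spleen origin. The sources used here give neither ages nor the number of animals behind a library. Host strain, skin graft and amount of antigen all differ between the libraries and cannot be told apart.

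With 1 library per group there is no spread between animals and no test, so every difference below compares these 2 libraries only. Libraries held 8508129 counted reads for exhausted cells and 7844445 for effector cells. Ratios are exhausted over effector after scaling for library size, and intervals are exact 95% counting intervals, which cover counting error only. A row counted as measured with at least 50 reads over both libraries, and as higher or lower when the ratio reached 2-fold and the interval excluded equality.

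A T cell receptor is a pair of chains, usually alpha and beta. Each chain gene is assembled in the thymus by joining a V (variable) segment, in the beta locus also a D (diversity) segment, and a J (joining) segment, and the joined V exon is spliced to a C (constant) region. Gamma and delta chains form a separate receptor on another T cell lineage, and the delta locus lies inside the alpha locus. The TEa receptor uses V alpha 2, the family of Trav14 segments, and V beta 6, which is Trbv19. V segments other than these are called endogenous here by their symbols alone. Reads of the Trav14 family and Trbv19 were not divided into transgenic and endogenous ones. Unrearranged loci can also be transcribed, so a read in a segment is not by itself a receptor chain. The joining and diversity segments of the TEa transgene are not given in the sources used, so D and J reads were not divided into transgenic and endogenous ones.

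The following reference sequences are of Trbv19 and of 4 measured members of the Trav14 family, the ends of their coding parts that lead into the antigen-contacting loop, taken from GENCODE M21 (GRCm38, the assembly of mm10). Trbv19 is shown with the codon of its conserved cysteine in capitals (chr6:41178959-41179048, plus strand). Which Trav14 copy the transgene carries is not given in the sources used. For these copies, which can share reads, capitals mark bases that differ from Trav14d-3-dv8, all on the plus strand of chromosome 14.
Trbv19: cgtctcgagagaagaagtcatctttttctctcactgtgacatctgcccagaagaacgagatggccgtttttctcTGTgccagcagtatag
Trav14d-3-dv8 (chr14:53078956-53079045): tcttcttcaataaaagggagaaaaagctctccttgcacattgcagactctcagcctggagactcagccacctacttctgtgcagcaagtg
Trav14-3 (chr14:53763605-53763694): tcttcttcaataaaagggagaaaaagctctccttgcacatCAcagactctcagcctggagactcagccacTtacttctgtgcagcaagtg
Trav14-1 (chr14:53554469-53554558): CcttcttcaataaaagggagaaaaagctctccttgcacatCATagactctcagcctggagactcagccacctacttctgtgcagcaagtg
Trav14d-1 (chr14:52856077-52856166): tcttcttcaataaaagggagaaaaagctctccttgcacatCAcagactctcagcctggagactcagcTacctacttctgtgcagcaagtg
Over the whole coding part, Trav14-3 differed from Trav14d-3-dv8 at 10 of 361 aligned bases, Trav14d-1 at 14 and Trav14-1 at 23. Trav14d-1 and Trav14n-1 had identical coding sequences over 364 bases, and so had Trav14d-2 and Trav14n-2.

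Joining segments, with a diversity segment, are shown next because the classes differed in direction there. Capitals mark the letters TTNGGNNNNGGN, the codons of a phenylalanine, a glycine, any residue and a glycine that most joining segments share. The letters were searched on the coding strand only, and occurred in 45 of 59 alpha joining segments (76.3%) and in 11 of 14 beta joining segments (78.6%).
Trbd1 (chr6:41533201-41533212): gggacagggggc
Trbj1-1 (chr6:41533864-41533911): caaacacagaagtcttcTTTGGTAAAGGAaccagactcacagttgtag
Trbj1-2 (chr6:41534001-41534048): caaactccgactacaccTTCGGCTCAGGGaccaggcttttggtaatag
Trbj2-1 (chr6:41542754-41542803): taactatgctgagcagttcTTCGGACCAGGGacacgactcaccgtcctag
Traj60 (chr14:54155933-54155986): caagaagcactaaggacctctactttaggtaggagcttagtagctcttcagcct
Traj58 (chr14:54157280-54157342): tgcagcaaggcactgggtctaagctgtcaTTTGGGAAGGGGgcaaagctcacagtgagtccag
Traj56 (chr14:54159263-54159325): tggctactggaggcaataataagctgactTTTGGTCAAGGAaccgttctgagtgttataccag
Traj27 (chr14:54192303-54192361): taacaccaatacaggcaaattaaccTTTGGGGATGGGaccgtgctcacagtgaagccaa
Traj21 (chr14:54198790-54198846): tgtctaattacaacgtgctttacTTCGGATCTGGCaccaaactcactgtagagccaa
Traj2 (chr14:54217836-54217901): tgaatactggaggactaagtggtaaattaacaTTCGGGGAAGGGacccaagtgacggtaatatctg
Traj60 is typed as a pseudogene in GENCODE M21 and its sequence does not hold these letters.

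Receptor segments took 0.912% of all reads in the exhausted library (77590 reads, interval 0.906 to 0.918%) and 1.47% in the effector library (115517 reads, 1.46 to 1.48%). Reads were counted for 179 of the 226 rows in at least 1 library, and 62 rows were measured. Of the measured rows, 11 were higher in exhausted cells (17.7%) and 13 were lower (21%), against 6.62% higher and 7.09% lower among all 9999 measured rows of the table. The median log2 ratio of the 62 rows was -0.16, against -0.01 for all measured rows. All 11 higher rows were alpha joining segments, and the 13 lower rows were V, D and beta J segments and Trac. The measured rows of 1 locus share transcripts, since a single receptor mRNA carries a V, a J and a C part, so they are not independent of each other.

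**Figure D1:**
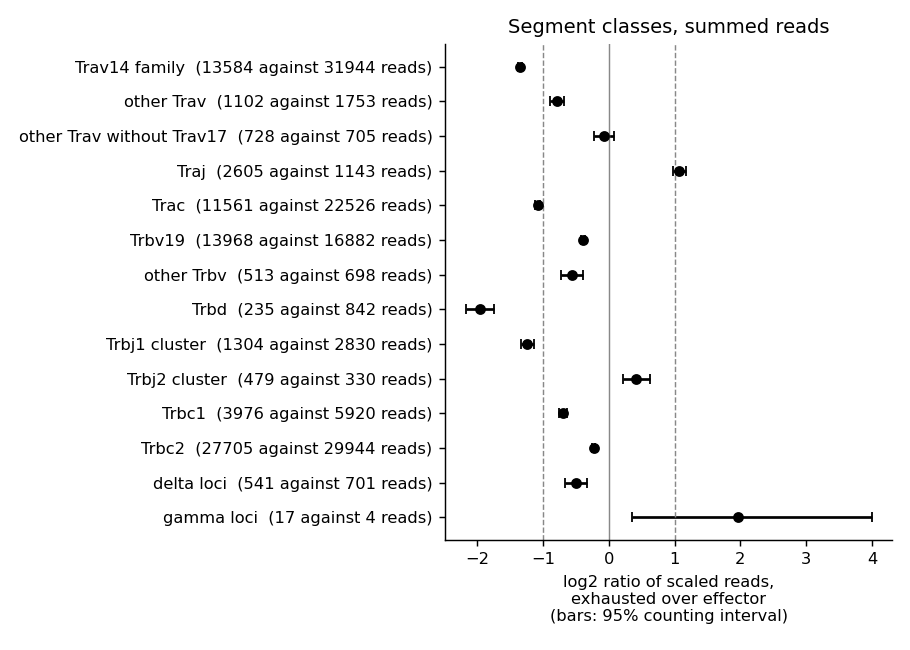
Log2 ratio of scaled reads, exhausted over effector, for summed segment classes; points are 1 library against 1 library, bars are 95% counting intervals and dashed lines mark 2-fold. The Trav14 family (13584 against 31944 reads) and Trac (11561 against 22526 reads) lie on the lower side and Traj (2605 against 1143 reads) on the higher side.

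The V alpha 2 family and the alpha constant region were lower in exhausted cells, and Trbv19 and the beta constant regions did not reach 2-fold. Trav14d-3-dv8 (ENSMUSG00000094619, mm10 chromosome 14, 53078580 to 53079045), which held nearly all reads of the V alpha 2 family, had 13494 reads in exhausted cells and 31697 in effector cells. It fell 2.55-fold (2.50 to 2.6). Trac, the alpha constant region (ENSMUSG00000076928, chromosome 14, 54220521 to 54223097), had 11561 reads in exhausted cells and 22526 in effector cells, and fell 2.11-fold (2.07 to 2.16). Trbv19 (ENSMUSG00000076475, chromosome 6, 41178589 to 41179048) had 13968 reads in exhausted cells and 16882 in effector cells, a ratio of 0.763 (0.746 to 0.780) that did not reach 2-fold.

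Both beta constant regions stayed under the 2-fold mark. Trbc2 (ENSMUSG00000076498, chromosome 6, 41546730 to 41548181) had 27705 reads in exhausted cells and 29944 in effector cells, with a ratio of 0.853 (0.839 to 0.867). Trbc1 (ENSMUSG00000076490, chromosome 6, 41538218 to 41539347) had 3976 and 5920 reads in exhausted and effector cells, with a ratio of 0.619 (0.595 to 0.645). The coding parts of Trbc1 and Trbc2 differ at 23 of 518 bases and share an identical run of 259 bases, so how reads were divided between them is uncertain. Trbc2 held 87.5% of Trbc reads in exhausted cells and 83.5% in effector cells.

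Comparisons inside a library do not depend on the scaling. Among reads of the constant regions Trac, Trbc1 and Trbc2, Trac took 26.7% in exhausted cells (26.3 to 27.2%) and 38.6% in effector cells (38.2 to 39.0%). Among reads of the Trav14 family and Trbv19, the Trav14 family took 49.3% in exhausted cells (48.7 to 49.9%) and 65.4% in effector cells (65.0 to 65.9%). The alpha chain was thus the smaller share in exhausted cells by its V and by its C segment. Per kilobase of row length, levels in exhausted cells in CPM, scaled reads per library size, were 4835 for Trav14d-3-dv8, 3290 for Trac, 4664 for Trbv19 and 6250 for Trbc2. The same levels in effector cells were 12320 for Trav14d-3-dv8, 6953 for Trac, 6114 for Trbv19 and 7327 for Trbc2. The order of the segments therefore differed, with Trav14d-3-dv8 above Trbc2 in effector cells and below it in exhausted cells.

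Trbv19 and the Trav14 family dominated their loci in both libraries. Trbv19 took 96.5% of Trbv reads in exhausted cells (96.1 to 96.8%) and 96.0% in effector cells (95.7 to 96.3%). The Trav14 family took 92.5% of Trav reads in exhausted cells (92.1 to 92.9%) and 94.8% in effector cells (94.56 to 95.03%). Within the family Trav14d-3-dv8 held 99.3% of reads in exhausted cells and 99.2% in effector cells.

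**Figure D2:**
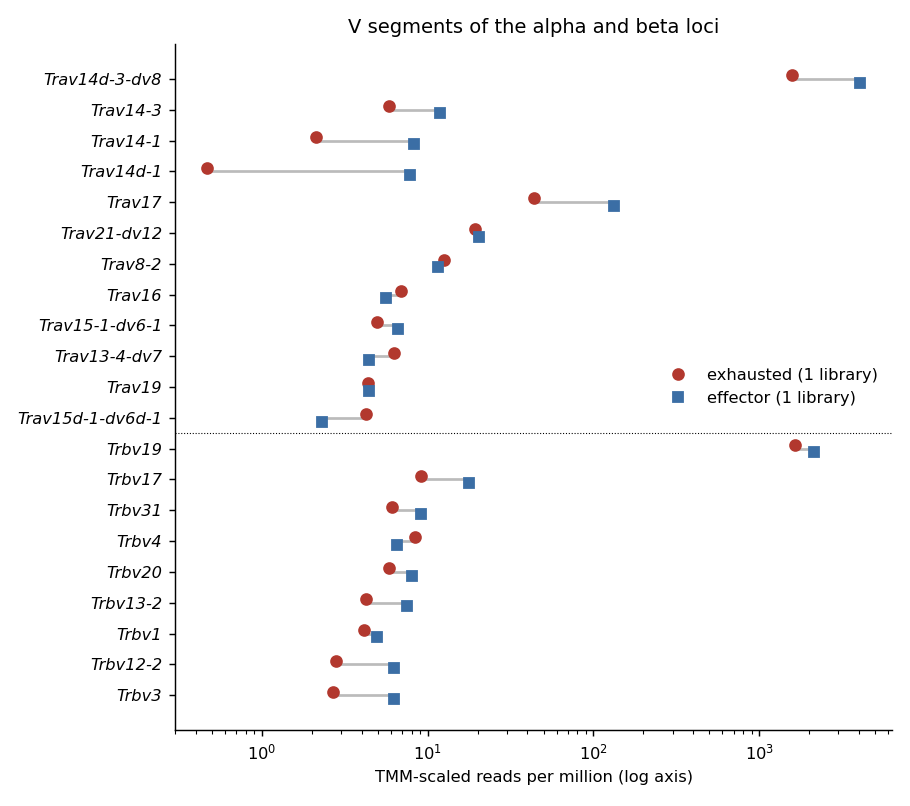
Scaled CPM (log axis) of the leading V segments, alpha above the dotted line and beta below it; circles are the exhausted and squares the effector library, with 1 library each. Trav14d-3-dv8 and Trbv19 stand far to the right of the other segments in both libraries, and Trav17 is the next highest alpha segment.

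The 3 other measured Trav14 copies were also lower, at far lower counts than the main one. Trav14-3 had 50 reads in exhausted and 93 in effector cells (2.02-fold lower, 1.42 to 2.91). Trav14-1 had 18 and 65 reads in exhausted and effector cells (3.92-fold lower, 2.30 to 7.02), and Trav14d-1 had 4 and 61 (16.5-fold lower, 6.14 to 62.7). Trav14-2, with 16 reads in exhausted and 26 in effector cells, and Trav14n-3, with 2 in each, were not measured. Trav14d-2, Trav14n-1 and Trav14n-2 had 0 reads in both libraries, which allows up to 3 reads in each. Given the near-identical sequences above, the counts of the copies cannot be taken apart from those of Trav14d-3-dv8. Of 32 Trav rows whose coding sequence is identical to, or contained in, that of another row, 26 had 0 reads, against 11 of 71 Trav rows with a unique one.

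Endogenous alpha V segments outside the Trav14 family summed to 1102 reads in exhausted cells and 1753 in effector cells over 100 rows, a ratio of 0.580 (0.537 to 0.625). That difference rested on 1 segment, Trav17. Trav17 (ENSMUSG00000096397, chromosome 14, 53806525 to 53807115), an alpha V segment, had 374 reads in exhausted and 1048 in effector cells and fell 3.04-fold (2.70 to 3.43). It took 33.9% of these endogenous reads in exhausted cells (31.1 to 36.8%) and 59.8% in effector cells (57.4 to 62.1%). Without it the sums were 728 reads in exhausted cells and 705 in effector cells, a ratio of 0.952 (0.857 to 1.06).

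The remaining endogenous alpha V segments showed little shift in common. Besides Trav17, 8 of them were measured, with 1 lower, none higher and 7 neither, against 7.09% lower among all measured rows. The lower one was Trav15-2-dv6-2, with 11 reads in exhausted and 40 in effector cells (3.94-fold lower, 1.99 to 8.52). Trav21-dv12, a segment usable by alpha and delta chains, had 165 reads in exhausted cells and 161 in effector cells. Trav8-2, typed as a pseudogene, had 107 and 91 reads in exhausted and effector cells. Trav16 had 59 and 44, and Trav15-1-dv6-1 had 42 and 52, in the same order of libraries. None of these 4 reached 2-fold.

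The V segments that mark invariant NKT and MAIT cells were at or near 0. Trav11 and Trav11d, whose product forms the invariant receptor of NKT cells, had 0 reads in both libraries. A count of 0 allows up to 3 reads, or 0.0204% of Trav reads in exhausted cells and 0.0089% in effector cells. That bound covers counting error only. How reads shared by similar copies, such as Trav11 and Trav11d may be, were handled is not given in the sources used. Trav1, the alpha V segment of MAIT cells, had 0 reads in exhausted cells and 1 in effector cells. Of 4 markers of these cells, which summed to 56.5 scaled CPM in exhausted and 49.8 in effector cells, Zbtb16, their lineage factor gene, had 4 reads in exhausted cells and 0 in effector cells, Klrk1 had 2 and 18, and Slamf1 had 246 and 337. Klrb1c, a receptor gene also used as a natural killer cell marker, had 229 reads in exhausted and 36 in effector cells and was 5.86-fold higher (4.11 to 8.58). Without it the markers summed to 252 reads in exhausted and 355 in effector cells, the opposite direction.

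Endogenous beta V segments summed to 513 reads in exhausted cells and 698 in effector cells over 22 rows, a ratio of 0.678 (0.603 to 0.760). Of these rows 4 had more reads in exhausted cells, 16 had more in effector cells and 2 had equal counts. Of the 10 measured, 2 were lower, none was higher and 8 were neither, against 7.09% lower among all measured rows. Trbv3 had 23 reads in exhausted and 49 in effector cells (2.31-fold lower, 1.38 to 3.97), and Trbv12-2 had 24 and 49 (2.22-fold lower, 1.33 to 3.77). The endogenous segment with the most reads, Trbv17, had 78 reads in exhausted and 139 in effector cells and did not reach 2-fold (1.93-fold lower, 1.46 to 2.59). Among the next, Trbv31 had 52 and 72 reads in exhausted and effector cells, Trbv20 had 50 and 63, and Trbv13-2 had 36 and 59. Trbv4 ran the other way with 71 reads in exhausted and 51 in effector cells. None of these 4 reached 2-fold.

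Beta J segments split by cluster, whereas the D segments of both clusters had more reads in effector cells. The first cluster, Trbj1, lies upstream of Trbc1, and the second, Trbj2, lies between Trbc1 and Trbc2. Trbj1 segments summed to 1304 reads in exhausted and 2830 in effector cells, 2.35-fold lower (2.20 to 2.52), whereas Trbj2 segments summed to 479 and 330, a ratio of 1.34 (1.16 to 1.54). The Trbj1 cluster held 73.1% of Trbj reads in exhausted cells (71.0 to 75.2%) and 89.6% in effector cells (88.4 to 90.6%).

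The difference was largest at the upstream end of the first cluster. Trbd1, the first diversity segment (chromosome 6, 41533201 to 41533212), had 213 reads in exhausted and 811 in effector cells and fell 4.13-fold (3.55 to 4.83). Trbj1-1 (chromosome 6, 41533864 to 41533911) had 375 and 1281 reads in exhausted and effector cells and fell 3.71-fold (3.30 to 4.17). Trbj1-2 had 115 and 307 and fell 2.90-fold (2.33 to 3.62). The other 5 members of the cluster had more reads in effector cells as well, without reaching 2-fold, among them Trbj1-3 with 219 reads in exhausted and 361 in effector cells and Trbj1-5 with 228 and 338. Trbj1-1 alone held 21.03% of Trbj reads in exhausted cells (19.2 to 23.0%) and 40.5% in effector cells (38.8 to 42.3%).

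In the second cluster no measured row reached 2-fold. Trbj2-1 had 220 reads in exhausted and 143 in effector cells (ratio 1.42, 1.14 to 1.76), and Trbj2-7 had 117 and 73 (1.48, 1.09 to 2.01). Trbd2 had 22 and 31 reads in exhausted and effector cells (ratio 0.654, 0.361 to 1.167). D and J rows are 12 to 72 bases long, so a read that covers one also covers flanking sequence, and no source used here says how such reads were credited.

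**Figure D3:**
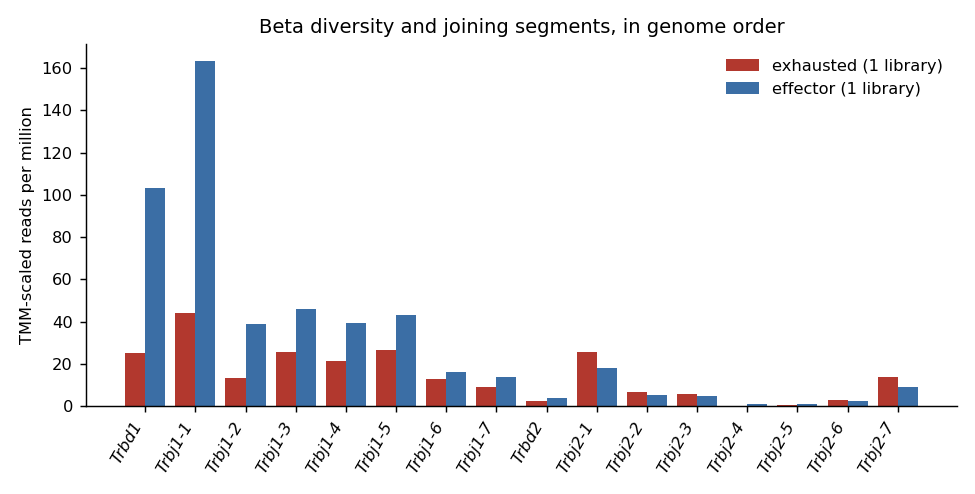
Scaled CPM (reads relative to library size) of the beta diversity and joining segments in genome order, with bars from 0, the exhausted library left of the effector library and 1 library each. Trbd1 and Trbj1-1 are the tallest bars of the effector library, and Trbj2-1 and Trbj2-7 are taller in the exhausted library.

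Alpha joining segments ran in the opposite direction to Trac, the Trav14 family and Trav17. Reads were counted in all 59 Traj rows, and 51 of them had more reads in exhausted cells, 5 had more in effector cells and 3 had equal counts. Of the 18 measured, 11 were higher (61.1%), none was lower and 7 were neither, with a median log2 ratio of 1.02. Their sum was 2605 reads in exhausted and 1143 in effector cells, 2.10-fold higher (1.96 to 2.25). Without Traj58 alone the sum was 1.87-fold higher (1.74 to 2.02) and no longer reached 2-fold.

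The upstream end of the joining cluster, farthest from Trac, held the most reads in exhausted cells. In effector cells the row with the most reads was Traj2, near Trac, with 249. Among measured rows the upstream end held the largest ratios, those of Traj56 and Traj58. Traj58 (ENSMUSG00000076875, chromosome 14, 54157280 to 54157342) had 467 reads in exhausted and 91 in effector cells and rose 4.73-fold (3.77 to 5.99). Traj56 had 49 and 4 reads in exhausted and effector cells and rose 11.3-fold (4.14 to 43.1). Its neighbours Traj52 with 37 and 6 reads, Traj55 with 26 and 2 and Traj53 with 17 and 1, in the same order of libraries, were each under 50 reads in all. So was Traj36, in the middle of the cluster, which had 24 and 1 reads and the largest ratio of any Traj row with reads in both libraries (22.1, 3.61 to 910). Traj60 rose 2.33-fold (227 reads in exhausted and 90 in effector cells), Traj61 2.17-fold (160 and 68), Traj59 2.01-fold (146 and 67) and Traj50 2.54-fold (102 and 37).

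Farther downstream, Traj27 rose 3.17-fold (79 reads in exhausted and 23 in effector cells, 1.97 to 5.28) and Traj21 rose 4.11-fold (49 and 11, 2.11 to 8.76). Traj18, the joining segment of the invariant NKT receptor, had 69 and 31 reads in exhausted and effector cells and rose 2.05-fold (1.33 to 3.24), Traj9 rose 2.20-fold (43 and 18) and Traj8 rose 2.01-fold (48 and 22). Closest to Trac among the measured rows, Traj2 had the second most reads of all and was level, with 293 in exhausted and 249 in effector cells (ratio 1.09, 0.913 to 1.29). Traj13 was the measured row with the lowest ratio, at 58 reads in exhausted and 73 in effector cells (0.733, 0.510 to 1.05).

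With the 59 rows split by position into 3 parts after their values were seen, the downstream part had the lowest ratio. The upstream 20, from Traj61 to Traj41, summed to 1418 reads in exhausted and 472 in effector cells (2.77-fold higher, 2.49 to 3.08). Without Traj58 they summed to 951 and 381 (2.30-fold higher, 2.04 to 2.598), and the order of the upstream and middle parts turned round. The middle 19, from Traj40 to Traj22, summed to 334 and 127 (2.43-fold higher, 1.97 to 2.998). The downstream 20, from Traj21 to Traj1, summed to 853 and 544 (ratio 1.45, 1.30 to 1.61). Of the downstream reads, Traj2 alone held 293 in exhausted and 249 in effector cells, and the part was not summed without it. The 9 Traj rows typed as pseudogenes in GENCODE M21, Traj60 and Traj61 among them, summed to 567 reads in exhausted and 230 in effector cells (2.27-fold higher, 1.95 to 2.66). The other 50 rows had 2038 reads in exhausted and 913 in effector cells, the same direction.

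**Figure D4:**
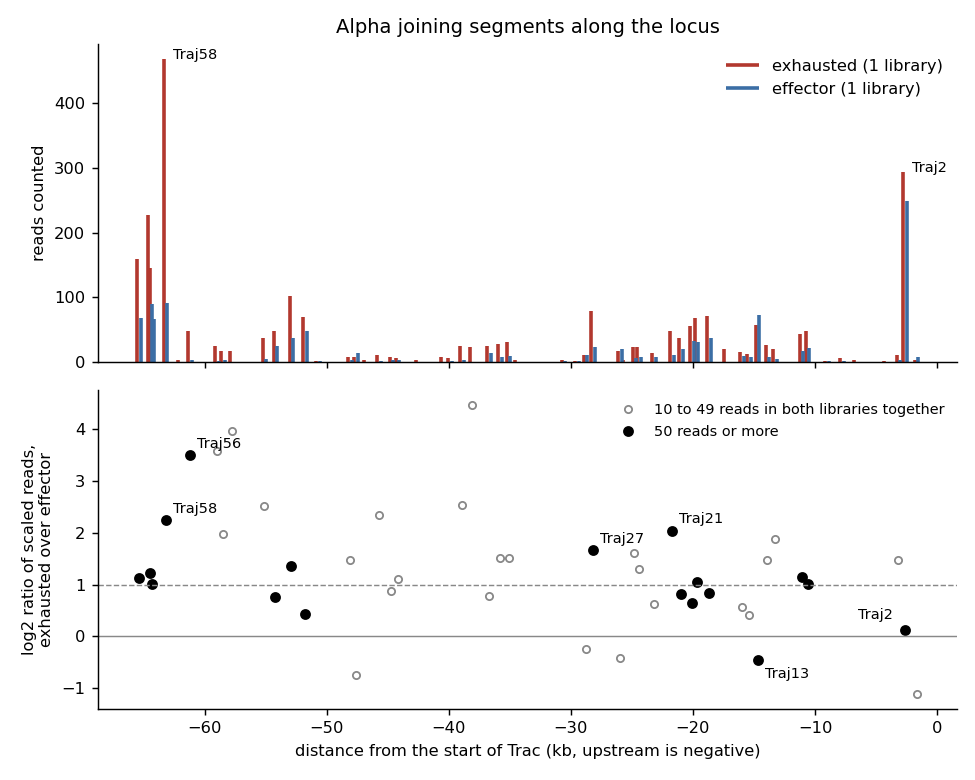
Alpha joining segments by their distance in kb from the start of Trac, with reads counted per library above (exhausted left of effector, 1 library each) and log2 ratios of exhausted over effector below, for the 43 rows with at least 10 reads and reads in both libraries. Of these rows 38 lie above 0, Traj58 and Traj56 lie near the upstream end, and Traj2 lies close to 0.

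The 5 Trdv rows of the delta locus summed to 541 reads in exhausted and 701 in effector cells, a ratio of 0.711 (0.635 to 0.797). Trdv2-2 had 169 and 356 reads in exhausted and effector cells and fell 2.29-fold (1.90 to 2.76). Without it the ratio of the sum was 0.994 (0.856 to 1.15). Trdv5 had 171 reads in exhausted and 185 in effector cells, Trdv1 had 128 and 109, and Trdv4 had 58 and 37, and none of these reached 2-fold. Trdv5 lies on the minus strand and overlaps 207 exon bases of Trdc on the plus strand, and Trdv2-2 overlaps the antisense gene Gm43647. No source used here gives the strand setting of the counts, so reads of such pairs cannot be told apart.

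Gamma loci were close to silent in both libraries. The 11 gamma rows summed to 17 reads in exhausted and 4 in effector cells, a ratio of 3.92 with a counting interval of 1.28 to 16.0, and none was measured. Tcrg-C4, a gamma constant region, had 10 reads in exhausted and 1 in effector cells, and Tcrg-V1 had 3 and 0. Tcrg-C1 had 2 and 1 reads in exhausted and effector cells, and Tcrg-C2 had 1 and 2. Of the gamma delta T cell markers, Sox13, a lineage factor gene, had 63 and 9 reads in exhausted and effector cells (6.45-fold higher, 3.19 to 14.8), Cd163l1 had 8 and 1, and Blk and Il23r had 0 in both libraries. The part of such cells in the gamma reads was not tested.

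Partners of the receptor moved in both directions, mostly by under 2-fold. Of 7 listed receptor complex genes, 6 were measured, with 1 lower, none higher and 5 neither, against 7.09% lower among all measured rows. Trat1, the gene of a receptor-associated adaptor, had 3 reads in exhausted and 716 in effector cells and was 259-fold lower (88.2 to 1258). Cd3g, a signalling chain gene of the complex, had 11641 and 7138 reads in exhausted and effector cells (ratio 1.503, 1.46 to 1.55), and Cd3e, another one, had 11432 and 7624 (1.38, 1.34 to 1.42). Cd4, the coreceptor gene, had 15463 and 9272 (1.54, 1.498 to 1.58). Cd247, the gene of the zeta signalling chain, ran the other way with 2864 reads in exhausted and 3859 in effector cells (ratio 0.684, 0.652 to 0.718). Ptcra, which encodes the surrogate alpha chain of thymocytes, had 0 reads in both.

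Segment joining takes place in developing thymocytes. Rag1 and Rag2, which encode the recombinase, had 0 reads in both libraries, which allows up to 3 reads in each. Dntt, which encodes the enzyme that adds bases at the joints, had 2 reads in exhausted and 36 in effector cells and was not measured. Of the 14 listed genes 11 were measured, with 1 lower, none higher and 10 neither, against 7.09% lower among all measured rows. The lower one was the DNA end-joining gene Xrcc4, with 79 reads in exhausted and 164 in effector cells (2.25-fold, 1.71 to 2.98). Those with the most reads, the chromatin protein gene Hmgb1 (4714 and 3210 reads in exhausted and effector cells), its relative Hmgb2 (2514 and 2850) and the DNA repair kinase gene Prkdc (918 and 763), did not reach 2-fold.

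Factors that bind receptor enhancers differed in both directions. Of 13 listed and measured, 1 was higher, 2 were lower and 10 were neither, against 13.7% called in either direction among all measured rows, with a median log2 ratio of -0.03. Myb rose 2.04-fold (971 reads in exhausted and 439 in effector cells, 1.82 to 2.29). Satb1, a chromatin organiser gene, fell 3.21-fold (2125 and 6287 reads in exhausted and effector cells, 3.05 to 3.37), and Bcl11b, a T cell identity factor gene, fell 2.04-fold (2061 and 3881, 1.94 to 2.16). Ets1 (22562 and 19003 reads in exhausted and effector cells), Tcf7 (20198 and 18980) and Lef1 (5498 and 4913) did not reach 2-fold. Of the other 7 that did not, named after their values were seen, Gata3 (ratio 1.65), Runx1 (1.79) and Cbfb (1.49) had more scaled reads in exhausted cells. Tcf12 (ratio 0.523), Tcf3 (0.624) and Runx3 (0.675) had fewer, and the intervals of these 6 excluded equality.

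Markers of other cells were looked at beside the endogenous segments, since in a bulk library fewer cells of a type and less RNA per cell cannot be told apart. Of the CD8 T cell markers Cd8a had 0 reads in both libraries, and Cd8b1 had 81 in exhausted and 164 in effector cells (2.20-fold lower, 1.67 to 2.90). Of the B cell markers Ms4a1 had 0 reads in both libraries, Cd79a had 18 reads in exhausted and 8 in effector cells, and Ighm had 3851 reads in exhausted and 7540 in effector cells (2.12-fold lower, 2.04 to 2.21). Summed natural killer cell markers, Klrb1c among them, were at 28.1 scaled CPM in exhausted and 12 in effector cells. Without Klrb1c they summed to 10 reads in exhausted and 58 in effector cells, the opposite direction. Natural killer cell markers were at 0 in both libraries for Klra8 and Klre1, with Ncr1 at 0 reads in exhausted and 5 in effector cells and Eomes at 10 and 53 (5.75-fold lower, 2.89 to 12.7). The 4 matched macrophage and dendritic cell markers, none of them measured, summed to 26 reads in exhausted and 63 in effector cells. Of these markers 2 had more reads in exhausted cells and 2 had more in effector cells. The 4 T cell markers Cd3e, Cd3d, Cd3g and Cd4 had more reads in exhausted cells in every case, and summed to 5300 scaled CPM there against 3740 in effector cells. The part of other cells in the endogenous segments was not tested.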

How the data were processed

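Total RNA of the sorted TEa cells was taken up in Trizol, and a Takara low-input kit was used for the libraries, per the labels' protocols. The deposited values are raw read counts, 1 column for each of the 2 libraries, beside the length of each gene. Reads were handled with STAR 2.6 on mm10, per the submitters' processing notes. No source used here names the counting program, its strand setting, the annotation release, or how reads shared by near-identical copies were handled. No molecular identifiers are recorded, so amplified copies can make counting intervals too narrow.

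Each column was matched to its sample by title. Library sizes were scaled over all 35275 rows with edgeR 4.0.16 (TMM) in R 4.3.3. Intervals are exact Clopper-Pearson intervals at 95% (scipy 1.17.1). For a ratio against 0 reads, 3 reads stood in for the 0. CPM values were computed here from the deposited counts and the TMM-scaled library sizes. The calling rule was tested before use on simulated data with counting noise only, without spread between animals or amplified copies. Members and lists were chosen with earlier results of these data known. Named rows were the constant regions, the transgenic V segments, the 5 other rows with most reads per class, up to 10 called rows each way, and, of the gene lists, called members and up to 3 with the most reads. Others, such as Traj36, Traj52, Traj53 and Traj55, were named after their values were seen.

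Sequences and types come from GENCODE M21, which held 219 of the 226 rows by gene ID, 104 of them with the coordinates of the deposited table. Coordinates of rows are those of the table and coordinates of sequences are those of GENCODE M21. The listed symbols Scart2 and Adgre1 were not matched and are not analysed here. Some listed marker genes, and the sums of their lists, are not reported here.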

Additional observations from a re-analysis of the deposited data

Results flagged for a closer look

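Rows of the receptor loci outside the symbols described above also held reads beyond the 3 that a count of 0 allows. Trdj1, a delta joining segment, had 285 reads in the exhausted and 403 in the effector library, and Trdj2 had 93 and 95. Trdd2, a delta diversity segment, had 15 reads in the exhausted and 21 in the effector library. B230359F08Rik, typed as a receptor V segment in GENCODE M21, had 27 reads in the exhausted and 44 in the effector library.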

How the results depend on the processing

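Of 88 alternatives over 17 results, 70 moved the value by less than its counting interval, or the count by less than 1.5 times, and none turned a called direction. Against 11 higher and 13 lower rows, the counts were 1 and 6 with a minimum of 500 reads, 3 and 2 at 4-fold or more, 3 and 8 with the interval wholly beyond 2-fold, and 1 and 7 with rows summed per family. Fewer rows can pass each of these by construction. With a minimum of 1 read, 26 rows were higher and 15 lower. Under DESeq2 1.42.0 size factors the Trbc2 ratio was 0.870. Per length of the row, the Trav14 share of Trav reads was 94.29% in exhausted and 96.05% in effector cells, and without pseudogenes 93.29% and 95.11%. Alternatives chosen after seeing the data gave ratios of 0.952 for other Trav without Trav17, 1.87 for Traj and 2.30 for its upstream part without Traj58, and 0.994 for Trdv without Trdv2-2. No paired analysis was possible because each group had 1 library, and for the same reason no library could be left out. Depth limits the rows under 50 reads, including every gamma row.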
